A study of Mus musculus with 6 samples.

Results

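Runs of 3 or more distal ATAC-seq peaks that lie close together on an autosome were examined in mouse embryonic stem cells (mESCs) with and without Spen, an RNA-binding co-repressor that is needed for gene silencing by Xist. The runs, called clusters here, were chosen by the positions of called peaks. In each list, autosomal peaks whose midpoint lay more than 2 kb from every transcription start site (TSS) of a coding gene were taken as distal, and neighbours were chained up to a set gap. The widest gap inside a cluster was 12485 bp in WT and 12492 bp in clone 3, and the narrowest that broke a chain was 12501 and 12507 bp. Chains of 3 or more peaks were kept, and chromosome 1 from 100 to 130 Mb was left out. In the WT list 658 of 11911 distal peaks (5.52%) formed 193 clusters, out of 22753 peaks in the list. In the Spen KO clone 3 list 714 of 13262 distal peaks (5.38%) formed 214 clusters, out of 23722 peaks.

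Both lines are HATX mESCs of mixed genomic background, haploid cells that carry an Xist transgene switched on by doxycycline, grown in serum and LIF. The WT line carries the transgene with Spen intact, and clone 3 is a single knockout clone in which most of Spen is deleted. The 6 sample records cover WT, clone 2 and clone 3, each without doxycycline and after 48 hours at 2 ug/mL. Each peak list names only its line, so the doxycycline state behind it is not stated, and clone 2 was not analysed here. A list holds the peaks shared by 2 technical replicates of a line. With 1 list per line no test between the lines was possible, and presence in a list depends on its depth, which is unknown. All intervals below are 95% intervals that cover counting error only, and peaks of 1 cluster are not independent of each other. The Spen gene itself (chr4, minus strand) carried 1 peak at its promoter in each list, with a score of 17.2 in WT and 16.8 in clone 3, so the lists do not show the deletion.

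ATAC-seq marks DNA that the Tn5 transposase can reach, which in distal regions mostly means enhancers, insulators and promoters of noncoding genes. Genes that define a cell type are often flanked by several neighbouring enhancers, and stitching such elements across short gaps is the usual first step in searching for super-enhancers. That name also needs a ranking by Mediator or histone acetylation, which the lists do not hold, so the clusters are described as runs of open sites only. Tandem arrays of small RNA genes form another kind of run, because each copy brings its own promoter.

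The largest cluster of either list lay in a tandem array. On chromosome 6 a pair of clusters lay between Ezh2, the H3K27 methyltransferase of Polycomb repressive complex 2, and Pdia4, a protein disulfide isomerase of the endoplasmic reticulum. RefSeq's gene order for GRCm38.p6 places the 4.5S RNA gene Rn4.5s and the Y RNA genes Rny1 and Rny3 in this interval, but the repeated unit was not matched to any of them by sequence. The cluster nearest to Pdia4 (chr6:47689713-47728702) held 9 peaks in WT and 9 in clone 3. The one nearest to Ezh2 (chr6:47604841-47635888) held 8 in WT and 7 in clone 3. A 300 bp window from the highest-scoring peak on the Ezh2 side was found 14 times in the interval with at most 5 mismatches, always on the same strand, and with a median step of 4336 bp. All 14 copies lay under a WT peak and 13 under a clone 3 peak. The search allowed up to 9 mismatches, so the likeness of these copies follows from it. The last copy ended at 47713624, and the Pdia4-side cluster ran on to 47728702 without a further one. The next sequences show a copy from each side. They are read from the plus strand of mm9, and capitals mark the 5 positions that vary among the 14 copies.
Array copy on the Ezh2 side, chr6:47635344-47635643: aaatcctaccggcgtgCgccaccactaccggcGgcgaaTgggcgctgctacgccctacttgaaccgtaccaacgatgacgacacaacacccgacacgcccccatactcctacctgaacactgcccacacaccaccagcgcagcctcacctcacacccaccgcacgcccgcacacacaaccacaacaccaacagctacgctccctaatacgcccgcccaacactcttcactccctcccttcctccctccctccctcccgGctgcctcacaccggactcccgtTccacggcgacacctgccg
Array copy on the Pdia4 side, chr6:47689939-47690238: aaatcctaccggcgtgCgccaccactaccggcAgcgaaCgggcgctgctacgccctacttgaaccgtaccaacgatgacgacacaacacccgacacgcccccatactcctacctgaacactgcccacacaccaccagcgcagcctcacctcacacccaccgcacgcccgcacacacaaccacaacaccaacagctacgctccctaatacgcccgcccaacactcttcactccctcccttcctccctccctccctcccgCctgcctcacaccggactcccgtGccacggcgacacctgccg

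The scores across the chromosome 6 array spanned less than a doubling in either list. Here and below, the score of a peak means the average of its values in both replicates as the authors deposited them, and no source names their scale. In the Ezh2-side cluster the WT scores, in order of position, were 27.8, 18.5, 20.9, 23.1, 20.3, 19.0, 19.9 and 31.1. Clone 3 had 22.3, 21.4, 16.1, 15, 17.7, no peak at the sixth site, 16.4 and 19.6. In the Pdia4-side cluster the scores ran from 20.8 to 34.0 in WT and from 16.6 to 27.3 in clone 3. Every site but the sixth on the Ezh2 side was thus in both lists, with WT percentiles within the list from 45.0 to 86.3 and clone 3 percentiles from 32.4 to 81.4. Pairs of peaks on the Ezh2 side were 99.8% to 100% identical over 432 to 601 bp in WT. On the Pdia4 side WT pairs were less alike, at 88.0% to 100% over 289 to 689 bp. All 8 WT peaks on the Ezh2 side were multi-copy, meaning that at least 50% of their 24-base sequences occurred 10 or more times in the genome. Reads from such copies can match several places. The study's peak calling used uniquely mapped pairs, and a second alignment placed each multimapping read at random. No source states outright which of them lies behind the lists, and the part that read placement plays in the scores of near-identical copies was not tested.

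A second array on chromosome 12 (chr12:55811299-55839578) held 6 peaks in both lists, 1 on each of 6 annotated genes for U1, the small nuclear RNA that recognises 5′ splice sites. Its nearest coding TSS, 8.60 kb away, belongs to Gm16382. The WT scores in order of position were 57.4, 22.1, 39.1, 42.4, 24.0 and 34.9. Clone 3 gave 58.7, 24.6, 37.8, 38.8, 20.7 and 39.5. The order of the copies was thus close to the same in both lists, with the first copy highest and the second and the fifth lowest. Of the 6 genes, 5 had the same 164 bases and the fifth by position differed at 1 base, whereas the 100 bases upstream differed from those of the first copy at 0, 13, 40, 40, 13 and 0 positions, counting the first copy itself as 0. Whole peaks were also alike in pairs. In WT the first and the sixth were 99.9% identical over 969 bp, with scores of 57.4 and 34.9. The second and the fifth were 100% identical over 677 bp, and the third and the fourth over 643 bp. The part that read placement plays in these scores was not tested. The U1 sequence is shown because WT scores from 22.1 to 57.4 stood over genes of almost the same sequence. It is written 5′ to 3′ on the transcribed strand of mm9, with a capital at the only position that varies among the 6.
U1 gene, first copy, chr12:55811295-55811458: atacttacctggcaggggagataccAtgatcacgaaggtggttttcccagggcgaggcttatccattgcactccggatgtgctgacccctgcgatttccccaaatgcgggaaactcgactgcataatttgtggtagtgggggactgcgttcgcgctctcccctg

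Small RNA genes recurred in other clusters, which were picked out after their values were seen. An array within Tex14 (chr11:87256296-87285696) held a peak on each of 4 genes for U3, the small nucleolar RNA that guides ribosomal RNA processing, with 6 peaks in WT and 5 in clone 3. A cluster near Arl4d on chromosome 11 held 3 peaks on 3 genes for U2, the small nuclear RNA that pairs with the branch point, in both lists. Near Mreg, which encodes melanoregulin, 4 peaks lay on a U2 gene and on 3 snRNA genes with clone-based names in both lists. Across all clusters 15 of 658 WT peaks (2.28%, 1.39 to 3.73) overlapped an snRNA gene, against 0.169% (0.108 to 0.264) of the other distal peaks. In clone 3 this was 15 of 714 (2.10%, 1.28 to 3.44) against 0.128% (0.0785 to 0.207). The 15 peaks came from 4 clusters in either list and are not independent. Since tandem genes lie within the chaining gap, the rule itself favours them. Of the 194 genes annotated as U1, 17 carried a WT peak and 8 a clustered WT peak, so most annotated copies had no peak in the list. The 5 clusters with an snRNA or snoRNA peak in clone 3 were all found in WT too, where there were 6.

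Noncoding genes of another kind were also more frequent under clustered peaks. Long intergenic noncoding RNA genes overlapped 7.29% (5.55 to 9.54) of clustered WT peaks and 3.05% (2.75 to 3.38) of the other distal peaks. For clone 3 the shares were 6.86% (5.23 to 8.96) and 2.57% (2.30 to 2.86). The intervals did not overlap in either list. Clusters with at least 1 pair of peaks alike in sequence (80% identity or more over 100 bp) numbered 18 in WT (9.33%) and 25 in clone 3 (11.7%), so most clusters were not made of repeated units.

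Most clusters were small. Of the WT clusters 149 had 3 peaks, 28 had 4, and 16 had 5 or more. In clone 3 these numbers were 168, 35 and 11. The median span was 15.6 kb in WT and 14.1 kb in clone 3, and the longest spans were 53.1 and 50.7 kb. The median gap between neighbours was 6278 bp in WT and 6040 bp in clone 3. In WT 66 of 465 gaps (14.2%, 11.3 to 17.7) were under 1 kb. With peaks under 1 kb apart merged before chaining, there were 144 WT and 162 clone 3 clusters, so some clusters rest on closely divided peaks. The clustered peak nearest to a coding TSS lay 2068 bp away in WT and 2136 bp away in clone 3, and the farthest peak left out as close to a TSS lay at 2000 bp in both lists.

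**Figure D1:**
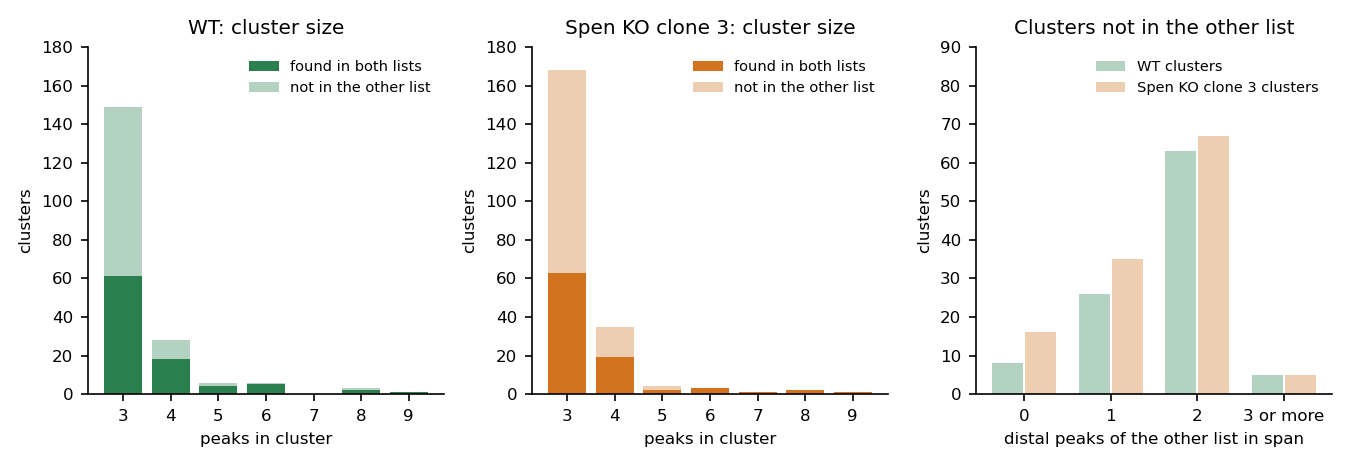
The left and middle panels show the number of clusters (vertical axis) by the number of peaks in the cluster for WT and Spen KO clone 3, with dark bars for clusters found in both lists and pale bars for the rest. The right panel shows, for clusters not found in the other list, how many distal peaks of that other list lay in their span, with 2 the most frequent number in both lines.

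The comparison of the lists asks which clusters of open sites are found with and without Spen. A cluster counted as found in both when its span overlapped a cluster of the other list, and 91 clusters of each list did so. This was 47.2% (40.2 to 54.2) of the WT clusters and 42.5% (36.1 to 49.2) of those in clone 3. By size, in WT it was 40.9% (33.4 to 49.0) with 3 peaks, 64.3% (45.8 to 79.3) with 4 and 75% (50.5 to 89.8) with 5 or more. The clone 3 shares were 37.5% (30.5 to 45.0), 54.3% (38.2 to 69.5) and 81.8% (52.3 to 94.9). The rule favours larger clusters here, since any chain of 3 in the other list is enough. Where both lists had to hold at least 4 peaks the share was 40.9% in WT and 39.1% in clone 3, and with at least 5 it was 31.2% and 45.5%, so no rise with size was seen in WT then. The order of the lines also turned when clone 3 was cut by score to the length of the WT list, with 43.5% of 193 WT clusters and 47.2% of 178 clone 3 clusters found in both. Of the 91, 62 held the same number of peaks in both lists, 16 held more in WT and 13 held more in clone 3.

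Clusters missing from the other list seldom lacked its peaks. Of 102 WT clusters with no clone 3 counterpart, 63 had 2 distal clone 3 peaks in their span, 26 had 1, 5 had 3 or more and 8 had none. Of 123 clone 3 clusters with no WT counterpart, 67 had 2 distal WT peaks in their span, 35 had 1, 5 had 3 or more and 16 had none. Most often, then, the other list held 2 distal peaks in the span, fewer than the 3 that a cluster needs, and 95.9% of WT and 92.5% of clone 3 clusters shared at least 1 peak with the other list.

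Peak by peak, clustered sites were found in 1 list about as often as distal sites in general. In WT 198 of 658 clustered peaks (30.1%, 26.7 to 33.7) overlapped no clone 3 peak, and the background over all distal WT peaks was 29.8%. In clone 3 it was 244 of 714 (34.2%, 30.8 to 37.7), with a background of 36.9%. The clustered peaks of neither list thus stood out from its background. Such peaks were weak, with a median score percentile within the list of 13.0 in WT and 14.7 in clone 3, against 52.9 and 56.3 for clustered peaks found in both. Only 17 of the 198 WT peaks and 19 of the 244 clone 3 peaks ranked above their list's median (8.59% and 7.79%). Low rank was general among distal peaks found in 1 list, of which 9.93% in WT and 18.5% in clone 3 ranked above the median outside clusters.

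**Figure D2:**
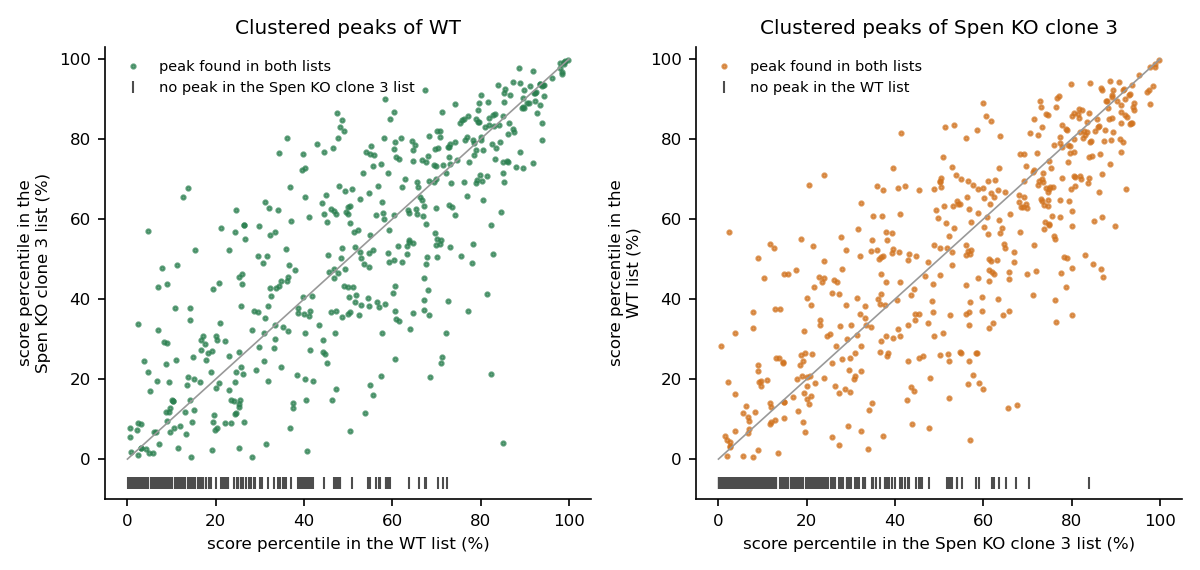
Each point is a clustered peak of WT (left) or Spen KO clone 3 (right), placed by its score percentile in its own list (horizontal axis, %) and by that of the overlapping peak in the other list (vertical axis, %). Ticks under the points are clustered peaks with no overlapping peak in the other list, which crowd at low percentiles, and the grey line marks equal percentiles.

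The median shift in rank between the lists was set against that of shared peaks outside clusters. For 289 clone 3 peaks clustered in both lists, each set against its overlapping WT peak, the percentile in clone 3 minus that in WT had a median of 0.450 points (-0.919 to 2.04). For the 7728 shared distal peaks in no cluster it was 3.15 points (2.72 to 3.56). These intervals did not overlap. The percentiles come from lists of 22753 WT and 23722 clone 3 peaks of unknown depth, and the shifts were not recomputed with lists of equal length. A median near 0 does not mean that each site kept its rank, and in the chromosome 6 array the third Ezh2-side site was at percentile 56.5 in WT and 39.4 in clone 3, while the second was at 45.0 and 65.9. Shared peaks clustered in 1 list gave -0.491 points (-2.54 to 1.51) for 172 clustered in WT only and 3.15 points (0.519 to 5.20) for 181 clustered in clone 3 only. Both of these sets were formed by which list called the neighbouring peaks, so nothing is read from their shifts.

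Clustered peaks of clone 3 differed from the other distal peaks of that list in several measures that the rule did not use. They ranked lower, with a median percentile of 37.8 (34.0 to 41.5) against 46.0 (45.3 to 46.7). They were shorter, with a median length of 442 bp (432 to 457) against 484 bp (481 to 487). The WT length intervals, 457 to 483 bp for clustered and 482 to 490 bp for other distal peaks, overlapped. Clustered clone 3 peaks were less often multi-copy, at 8.12% (6.34 to 10.4) against 14.7% (14.1 to 15.3). The last gap was wide among peaks found in clone 3 only, where 22 of 244 clustered peaks (9.02%, 6.03 to 13.3) and 1009 of 4648 other distal peaks (21.7%, 20.5 to 22.9) were multi-copy. The matching WT-only shares were 5.05% (2.77 to 9.05) and 5.28% (4.57 to 6.09), whose intervals overlapped. Over all WT peaks the intervals overlapped as well, with 7.14% (5.41 to 9.37) of clustered and 8.96% (8.44 to 9.50) of other distal peaks multi-copy. They were apart when 50 copies were required, at 2.89% (1.86 to 4.47) against 6.96% (6.50 to 7.44), as were those of clone 3, at 4.48% (3.19 to 6.26) against 12.4% (11.9 to 13.0). For WT the percentile intervals of clustered and other distal peaks overlapped too, at 40.2 (36.3 to 45.2) and 42.3 (41.4 to 43.0). GC content of the central 300 bp was alike, with a median of 53.0% in both WT sets and of 52.0% and 52.7% in clone 3.

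Clustered peaks lay among slightly more coding genes than other distal peaks and were more often intergenic. Intergenic here means outside coding genes, so peaks on noncoding genes are included. The median number of coding genes with a start within 500 kb was 11 for clustered and 9 for other distal WT peaks, and 10 and 8 for clone 3. Intergenic positions made up 64.3% (60.6 to 67.9) of clustered and 58.7% (57.8 to 59.6) of other distal WT peaks. In clone 3 they were 66.2% (62.7 to 69.6) and 60.4% (59.5 to 61.2). The median distance from a cluster to the nearest coding TSS was 17.4 kb in WT and 18.4 kb in clone 3.

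In WT the intervals of clustered and other distal peaks overlapped for each of 6 motifs. The letters searched on both strands of the central 300 bp were ATGCAAAT (the octamer bound by Oct4), CATTGTNAT (joined Sox2 and Oct4 sites), TCAAGGTCA (Esrrb), GGGTGTGG (Klf4), AGGGGGCGC (the core of the insulator protein CTCF) and GTGGGAA (Rbpj, the DNA-binding effector of Notch signalling and a known partner of Spen). The octamer was in 2.89% (1.86 to 4.47) of clustered and 4.76% (4.38 to 5.17) of other distal WT peaks. The joined site was in 1.22% (0.617 to 2.38) and 1.34% (1.15 to 1.57) of them. For clone 3 the octamer shares were 4.34% (3.08 to 6.10) of clustered and 4.45% (4.10 to 4.82) of other distal peaks. In clone 3 the Esrrb letters were in 14 of 714 clustered peaks (1.96%, 1.17 to 3.26) and 0.948% (0.793 to 1.13) of the others, and the Rbpj letters in 8.40% (6.58 to 10.7) and 6.03% (5.63 to 6.46). These were the only pairs of the 12 with intervals that did not overlap, and with the whole peak searched both overlapped. A match is a description and not a bound site.

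**Figure D3:**
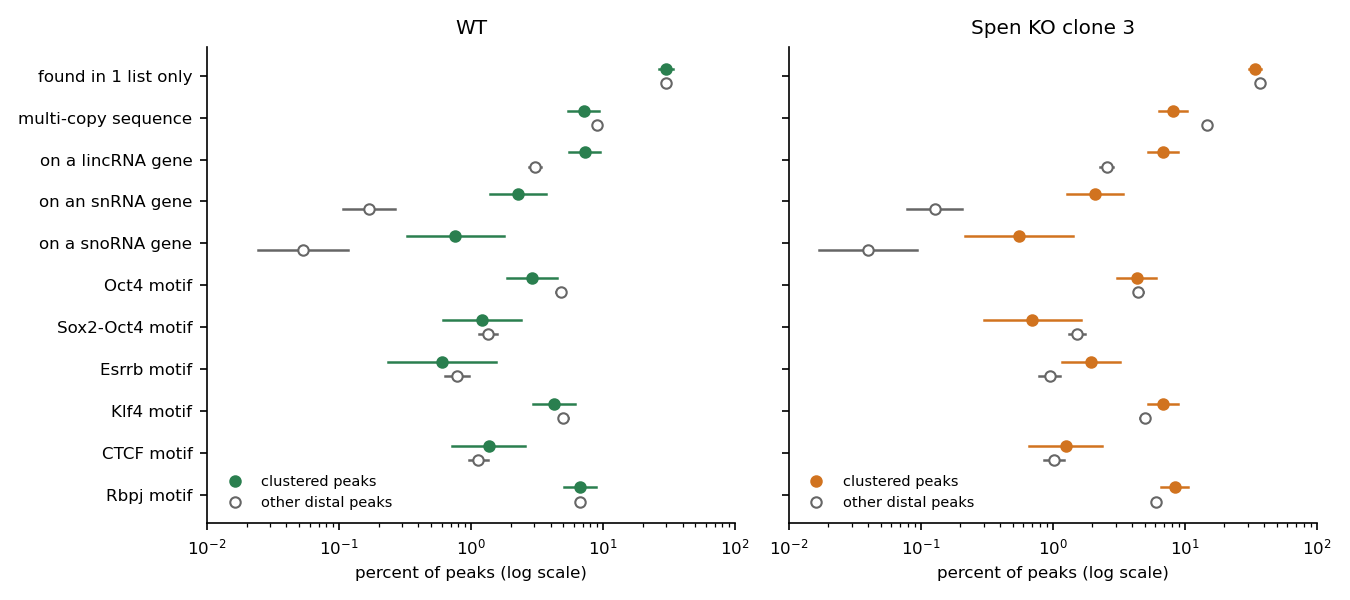
Percent of peaks (horizontal axis, log scale) with each feature for clustered peaks (filled points) and other distal peaks (open points), in WT (left) and Spen KO clone 3 (right), with 95% Wilson intervals as bars. The snRNA, snoRNA and lincRNA points of clustered peaks lie above those of other distal peaks in both lists, and the share found in 1 list does not.

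The nearest coding genes numbered 186 for the WT clusters and 209 for those of clone 3, which is 0.874% and 0.982% of the 21281 coding genes annotated. Of these genes 90 were common to both lists, 48.4% of the WT set and 43.1% of the clone 3 set. From 5 lists with 87 annotated genes for pluripotency, signalling, formative cells, lineage and chromatin, 10 were nearest to a WT cluster (11.5%) and 13 to a clone 3 cluster (14.9%). A nearest gene is named by distance alone and need not be the gene that a cluster acts on.

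Among 29 pluripotency factors, 5 were nearest to a WT cluster (Sox2, Utf1, Myc, Zfp281 and Trim71) and 6 to a clone 3 cluster (Sox2, Esrrb, Nr5a2, Dppa5a, Zfp281 and Trim71). A distal peak of any kind had 21 of the 29 as nearest gene in WT and 24 in clone 3, which is no measure of their expression. Over all coding genes, 6762 of 21281 were nearest to a distal WT peak, and 2.75% of those 6762 were nearest to a WT cluster. In WT 3 of 20 genes of LIF, BMP, Nodal and ERK signalling had a cluster. They were Socs3, the feedback inhibitor of LIF signalling, with 2 clusters, Etv5, an ETS factor that responds to ERK, and Fgfr1, an FGF receptor. In clone 3 there were 2, Fgfr1 and Pim1, a kinase induced by STAT3. None of 10 formative and primed markers was nearest to a cluster in either list. Of 13 lineage regulators, 0 had a WT cluster, and Cdx2 (trophectoderm), Foxa2 (endoderm) and Gsc (organizer) had one in clone 3. The Gsc cluster of 4 peaks overlapped a WT cluster of 5 peaks whose nearest gene was Serpina3n. All 4 clone 3 peaks were shared, and WT had 1 further peak (chr12:105656502-105657042) on the Serpina3n side. Of 15 chromatin regulators, Phc1, a subunit of Polycomb repressive complex 1, and Ezh2 had a cluster in both lists.

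Trim71, an RNA-binding regulator of early development, had an intronic cluster in both lists. The 3 sites found in both had scores of 25, 16.9 and 43.3 in WT and of 20.6, 17 and 26.5 in clone 3. Clone 3 had 2 additional sites with scores of 9.79 and 8.18, close to the floor of the list at percentiles 8.34 and 2.90. WT had a peak of 7.85 beyond the second, 15220 bp from its last clustered peak, that the gap limit left out. Both additional windows held the octamer, in capitals below, whereas the strongest shared window held none of the motifs. All windows here and below are the 300 bp around a peak's midpoint on the plus strand of mm9.
Trim71, peak in both lists, chr9:114450502-114450801: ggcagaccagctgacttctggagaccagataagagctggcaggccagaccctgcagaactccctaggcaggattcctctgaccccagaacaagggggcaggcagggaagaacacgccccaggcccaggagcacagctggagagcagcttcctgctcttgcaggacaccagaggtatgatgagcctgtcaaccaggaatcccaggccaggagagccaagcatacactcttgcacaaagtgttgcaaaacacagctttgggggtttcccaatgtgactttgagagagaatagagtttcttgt
Trim71, first additional clone 3 peak, chr9:114458352-114458651: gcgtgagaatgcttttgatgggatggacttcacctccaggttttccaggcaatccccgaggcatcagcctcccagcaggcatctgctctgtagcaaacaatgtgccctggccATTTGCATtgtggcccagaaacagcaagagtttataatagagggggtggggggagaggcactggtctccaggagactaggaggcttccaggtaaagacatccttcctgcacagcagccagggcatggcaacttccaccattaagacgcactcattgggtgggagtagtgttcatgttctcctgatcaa
Trim71, second additional clone 3 peak, chr9:114465458-114465757: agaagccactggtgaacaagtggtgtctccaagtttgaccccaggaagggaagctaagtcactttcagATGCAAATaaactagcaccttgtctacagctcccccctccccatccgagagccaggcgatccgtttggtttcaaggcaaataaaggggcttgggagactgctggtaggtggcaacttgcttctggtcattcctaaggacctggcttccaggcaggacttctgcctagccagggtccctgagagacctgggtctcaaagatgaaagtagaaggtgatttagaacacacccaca

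Esrrb encodes an orphan nuclear receptor that maintains naive pluripotency. Its clone 3 cluster (chr12:87819870-87845714) lay inside the gene, 8.80 kb downstream of the nearest TSS, and had scores of 12.9, 9.87, 13.3, 19.1 and 12. WT had only the third and the fourth of these sites, at 18.5 and 19.9, and so no cluster. The 3 sites found in clone 3 alone ranked at percentiles of 21.0, 8.54 and 16.7. The first held an octamer, and the last held the Esrrb and Klf4 letters, shown in capitals.
Esrrb, first clone 3 peak, chr12:87819908-87820207: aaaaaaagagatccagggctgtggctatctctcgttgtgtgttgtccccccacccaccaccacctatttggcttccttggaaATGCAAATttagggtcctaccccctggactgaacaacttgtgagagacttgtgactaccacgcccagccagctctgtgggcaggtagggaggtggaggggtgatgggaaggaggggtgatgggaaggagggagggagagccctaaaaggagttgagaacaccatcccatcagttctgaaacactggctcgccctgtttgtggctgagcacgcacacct
Esrrb, last clone 3 peak, chr12:87845362-87845661: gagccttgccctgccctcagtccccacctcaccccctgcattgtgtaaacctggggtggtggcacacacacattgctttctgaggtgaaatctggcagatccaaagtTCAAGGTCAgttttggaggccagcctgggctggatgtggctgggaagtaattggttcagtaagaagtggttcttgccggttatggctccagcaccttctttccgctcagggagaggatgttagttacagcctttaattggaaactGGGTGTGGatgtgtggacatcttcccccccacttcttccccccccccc

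Sox2 showed how a cluster could appear in both lists at different places with much the same sites. In WT a cluster of 3 peaks began 78.2 kb downstream of the TSS, with scores of 12.2, 16.2 and 14.2, and a further pair of peaks at 18.1 and 15.3 stood 15647 bp beyond it. Clone 3 had the second and the third of these sites at 16 and 16.9 but not the first, and 14504 bp beyond them a cluster 110 kb from the TSS with scores of 10.4, 19.1 and 12.4. Of the 6 sites 4 were common to both lists, yet neither cluster overlapped the other.

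Myc was nearest to a pair of WT clusters. At the first (chr15:61869113-61885514) the WT scores were 7.69, 12.7 and 15.7, and clone 3 had only the middle site, at 15.9, without the strongest. The other, within the noncoding gene Pvt1, was the largest cluster found in 1 list only. In WT 8 peaks (chr15:61910551-61963648) began 91.6 kb downstream of Myc, with scores of 14.7, 7.29, 65.8, 18.7, 43.8, 9.86, 25.1 and 18.5. Clone 3 had 5 of these sites, at 12.2, 70.3, 38.5, 22.6 and 18.1, among them both of the strongest. The sites it lacked had WT scores of 7.29, 18.7 and 9.86. Without them, gaps of 12725, 13188 and 16658 bp broke the chain, so that the strongest sites remained while the cluster did not. The strongest site ranked at percentile 99.0 in WT and 99.5 in clone 3, and its window held the joined Sox2 and Oct4 letters on the minus strand, in capitals.
Myc and Pvt1, peak in both lists, chr15:61924316-61924615: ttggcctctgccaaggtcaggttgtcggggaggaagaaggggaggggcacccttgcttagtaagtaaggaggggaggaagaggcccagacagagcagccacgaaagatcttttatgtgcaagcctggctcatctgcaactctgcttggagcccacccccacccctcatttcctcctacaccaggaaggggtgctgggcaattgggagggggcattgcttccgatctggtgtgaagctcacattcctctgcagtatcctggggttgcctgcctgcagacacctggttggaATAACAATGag

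The same held for Spen, picked out after its values were seen. Upstream of its promoter, 5 WT peaks (chr4:141102656-141126372) had scores of 11.7, 19.6, 16.6, 17.9 and 24.0. Clone 3 had 4 of them, at 17.6, 19.7, 12.6 and 20.1, and the absence of the third left a gap of 12544 bp, just past the limit. In the reverse direction, 4 clone 3 peaks (chr7:3201120-3222607), also picked out afterwards, lay over and upstream of the genes of the Mir290 to Mir295 microRNAs, which are abundant in mESCs. Their nearest coding gene was Nlrp12. The scores in clone 3 were 22.3, 28.0, 16.6 and 25, and WT had all but the third, at 22.7, 29.8 and 37.8. The strongest clone 3 window held none of the 6 motifs.
Mir290 cluster, peak in both lists, chr7:3206518-3206817: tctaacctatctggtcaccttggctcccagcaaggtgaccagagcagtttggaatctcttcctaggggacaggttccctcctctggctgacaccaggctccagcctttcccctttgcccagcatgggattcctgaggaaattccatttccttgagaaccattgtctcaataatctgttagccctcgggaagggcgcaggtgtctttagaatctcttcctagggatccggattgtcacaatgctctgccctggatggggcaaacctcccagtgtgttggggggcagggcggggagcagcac

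Phc1 had the same 3 upstream sites in both lists, with scores of 32.1, 21.2 and 22.0 in WT and 38.2, 14.9 and 31.0 in clone 3. The first site lay in a short tandem repeat. Its window held 5 copies of a 16-base unit, in capitals, each 39 bp after the last. At the intronic sites of Fgfr1 the scores were 18.7, 30.9 and 17.6 in WT and 11.6, 29.7 and 14.9 in clone 3, again 3 sites of 3.
Phc1, peak in both lists, chr6:122297351-122297650: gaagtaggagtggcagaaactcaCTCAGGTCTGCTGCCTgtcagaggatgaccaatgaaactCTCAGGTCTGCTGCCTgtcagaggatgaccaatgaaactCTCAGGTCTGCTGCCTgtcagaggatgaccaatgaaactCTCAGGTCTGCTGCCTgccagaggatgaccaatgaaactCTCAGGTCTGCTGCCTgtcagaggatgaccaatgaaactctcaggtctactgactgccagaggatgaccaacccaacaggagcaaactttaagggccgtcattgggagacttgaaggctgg

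**Figure D4:**
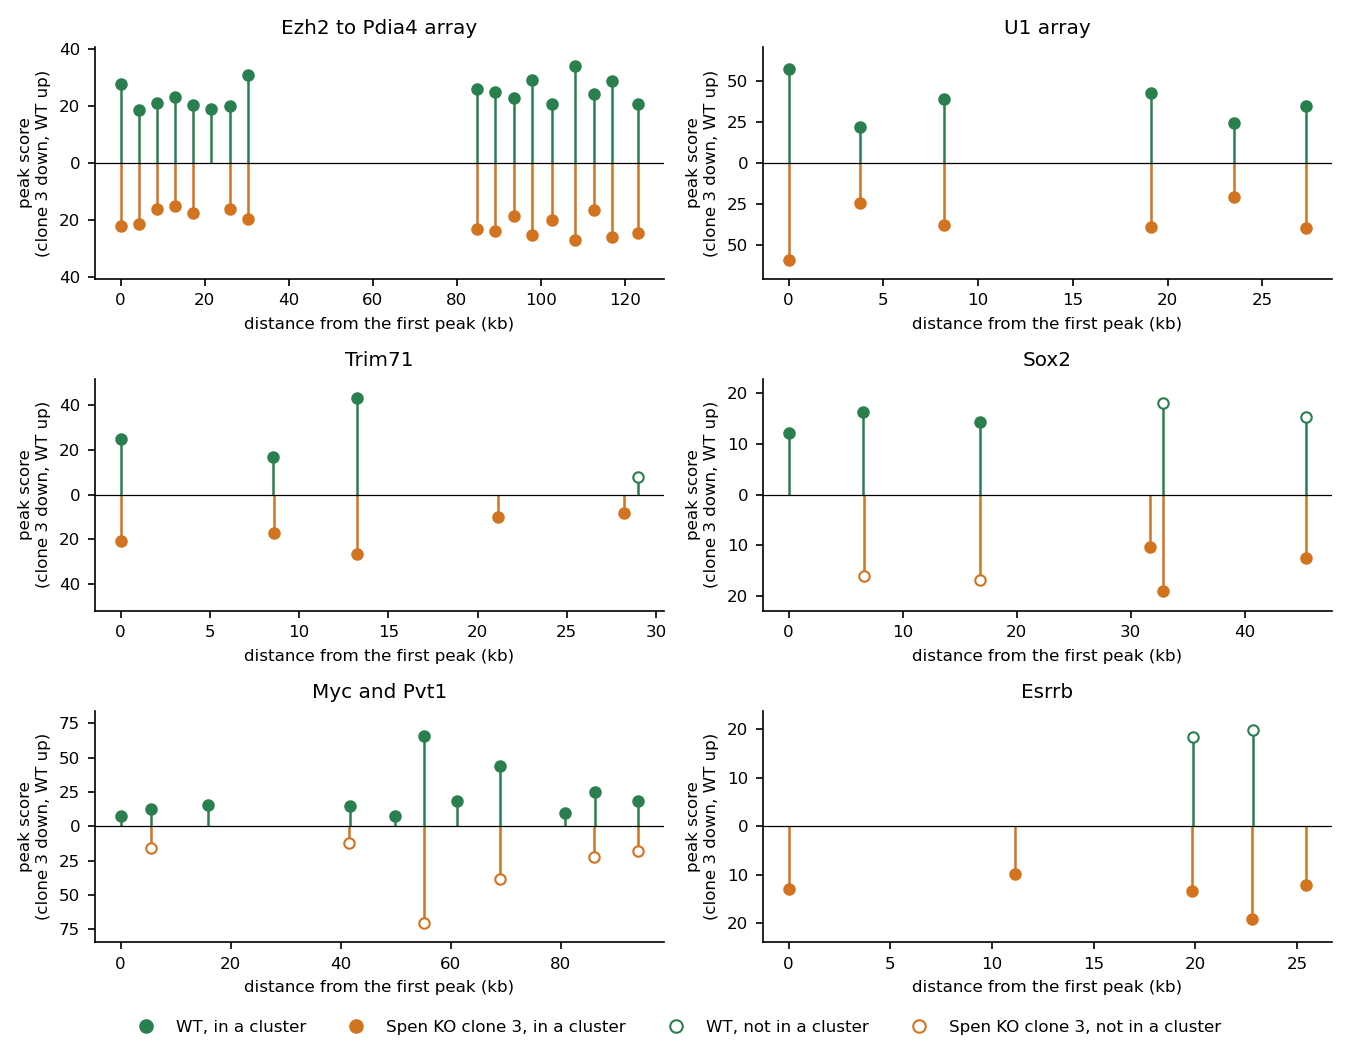
Peak scores (vertical axis, no unit named, WT upward and Spen KO clone 3 downward) by distance from the first peak (horizontal axis, kb) at 6 loci. Filled points are peaks in a cluster and open points are peaks of the list outside one, so that the Sox2, Myc and Esrrb panels show open points opposite filled ones at the same site.

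Clusters found in both lists could differ in size. The widest differences toward clone 3 were 8 peaks against 4 near Mreg and 6 against 4 near Serbp1, an RNA-binding protein gene, and near Acot11, a thioesterase gene. Near Mreg, WT peaks of 1470 and 956 bp each overlapped 2 clone 3 peaks that were 75 and 49 bp apart, so part of the difference lay in how 1 stretch was divided. Toward WT the widest of those reported were 6 against 3 near Hspb3, a small heat shock protein gene, and near Pcdhgc5, a clustered protocadherin, then 5 against 3 near Gm6901 and near Arid2, a subunit of the PBAF remodelling complex. In the WT span near Gm6901 clone 3 also held 5 distal peaks, and near Pcdhgc5 it held 4, so there part of the difference lay in where the clone 3 chain ended. The cluster near Sfi1, a centrosomal gene, held 8 peaks in each list, of which 6 were shared, and its first site had the top score of any clustered peak, 96.4 in WT and 90.1 in clone 3.

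The clusters without any shared peak were few and differed between the lists in position. In WT there were 8 (4.15%, 2.12 to 7.96) and in clone 3 there were 16 (7.48%, 4.65 to 11.8). Of the 8 in WT, 7 (87.5%, 52.9 to 97.8) lay within 20 kb of a coding TSS, with a median distance of 4.76 kb, and 0 of their 26 peaks were multi-copy. Of the 16 in clone 3, 3 (18.8%, 6.59 to 43.0) lay within 20 kb, with a median distance of 74.2 kb. Of the 49 peaks in these 16 clusters, 13 (26.5%) were multi-copy, in 6 clusters. Among other distal peaks found in 1 list only, 5.28% in WT and 21.7% in clone 3 were multi-copy, so multi-copy peaks were more frequent in clone 3 outside clusters too. Over all clusters, 52.3% of WT and 50.9% of clone 3 lay within 20 kb. All peaks of the clusters without a shared peak were of low to middling rank, with scores of 7.64 to 21.4 in WT and of 6.54 to 21.2 in clone 3.

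Among the WT clusters without a shared peak, 2 had 4 peaks. At Hspa8, which encodes a constitutive heat shock chaperone, 4 distal WT peaks had scores of 12.3, 14.6, 17.7 and 16.4 around the promoter and clone 3 had none of them. The Hspa8 promoter peak was in both lists, at 35 in WT and 30.3 in clone 3. At Scaf4, whose product binds RNA polymerase II, 4 WT peaks had 9.90, 8.0, 13.8 and 20.9. The next 3 lay near Pawr, a pro-apoptotic gene, but inside Syt1, around Junb, a subunit of the AP-1 factor, and inside Aff1, a scaffold of the super elongation complex. Of the clone 3 clusters, the largest had 4 peaks and lay 57.2 kb upstream of 4921528I01Rik on chromosome 18. The cluster nearest to Ghitm was 607 kb from it. Those inside Camk4 and A830018L16Rik had 3 of 3 peaks multi-copy. The one assigned to Nr5a2, a nuclear receptor that can stand in for Oct4 in reprogramming, lay 418 kb upstream, with scores of 16.2, 20.4 and 11.7.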

How the data were processed

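ATAC-seq reads of HATX mESCs were processed by the authors. Per their methods, reads were trimmed with cutadapt, mapped to mm9 with Bowtie2, limited to unique proper pairs, stripped of duplicates, and called with MACS2 without a shifting model. Peaks that passed the IDR between 2 technical replicates were kept, and the largest deposited IDR value was 0.0500. A second alignment, made by the authors to include repeats, placed each multimapping read at random, and which alignment lies behind the lists is not stated outright. Versions are not given in the sources used here. The deposited files give the position and length of each peak, its value in either replicate and its IDR. The scale of these values is not named, so scores were only ranked or set side by side. Read depth is unknown.

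The clusters, gene lists and comparisons were chosen with earlier results of these data known. Distances, chains and overlaps (at least 1 bp) were computed with Python 3.11.15, pandas 2.3.3 and numpy 2.4.6 on the NCBIM37 (mm9) genome and its GENCODE annotation. Wilson and binomial intervals used scipy 1.17.1, and pairs of peaks were aligned with BLAST+ 2.17.0 (e-value up to 1e-10). The chaining, overlap and copy counts were tested on simulated data. Named clusters were the 5 with most peaks per list, those nearest to a listed gene, up to 5 per list without a shared peak, and up to 5 in each direction with the widest difference in peak number. A cluster that this rule names is not reported here. Gaps, chain length, TSS distance, list length, score and overlap rules were varied. Clone 2 was not analysed here.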

Additional observations from a re-analysis of the deposited data

Results flagged for a closer look

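Chromosome 1 from 100 to 130 Mb, which was outside every comparison above, held 7 clusters in the Spen KO clone 3 list and 2 in the WT list. The clone 3 clusters comprised 23 of 307 distal peaks there (7.49%), and the WT clusters 6 of 107 (5.61%). Clone 3 thus had more distal peaks in the segment than WT and a larger share of them in clusters. Outside the segment the clustered shares of distal peaks were 5.38% in clone 3 and 5.52% in WT. These differences were not tested, since each line has 1 list.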

How the results depend on the processing

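Of 124 alternative values, 95 stayed within the spread or within 1.5 times the main count, and 29 moved. The order of the lines turned with lists of equal length, with 178 clusters in clone 3 and 193 in WT, 47.2% and 43.5% of clusters found in both, and 30.1% and 32.1% of clustered peaks found in 1 list. The number of clusters, 214 in clone 3 and 193 in WT, became 41 and 35 with gaps of at most 5 kb, 499 and 475 with 25 kb, 46 and 44 with at least 4 peaks, 11 and 16 with at least 5, and 27 and 26 among peaks at or above the median score. The share of clusters found in both lists became 22.0% in clone 3 and 25.7% in WT with gaps of at most 5 kb, 55.6% and 57.7% at or above the median score, and 92.5% and 95.9% where any shared peak sufficed. With at least 5 peaks per chain in both lists it was 31.2% in WT. The share of clustered peaks found in 1 list became 43.5% in clone 3 with gaps of at most 5 kb. With at least 5 peaks it was 21.4% in clone 3 and 26.3% in WT, and at or above the median score 4.40% and 4.30%. Searching whole peaks gave Klf4 letters in 9.10% and 7.14% of clustered peaks and Rbpj letters in 12.2% and 11.9%. With 50 copies required, 4.48% and 2.89% were multi-copy. Fewer peaks entered the stricter settings by construction, and the cause of the other moves was not tested. No paired analysis was possible because each line has 1 list and no result comes from a test.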
